A study of Mus musculus with 4 samples.

Results

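The mTOR kinase and the proteins that hold it back were examined at the level of their mRNA in regulatory T (Treg) cells. The group held 9 genes, taken as the rows of the deposited table whose gene name was Mtor, Rptor, Rictor, Tsc1, Tsc2, Rheb, Ddit4, Sesn1 or Sesn3, out of 24418 genes listed. Mtor, Rptor and Rictor were treated as 3 complex subunits and Tsc1, Tsc2, Ddit4, Sesn1 and Sesn3 as 5 brakes, while Rheb, an activator, was kept apart. Treg cells had been sorted from the spleen and lymph nodes of Foxp3yfpCre mice, which express a yellow fluorescent protein and Cre recombinase from the Foxp3 locus, and were then held for 3 h with PBS or with 100 ng/mL TSLP, an epithelial cytokine. All 4 libraries shared this genotype, with 2 libraries in each group (PBS 1 and PBS 2, TSLP 1 and TSLP 2), and the labels do not say whether the libraries came from separate animals. Mice in the study were 8 to 12 weeks old. The p-values measure only the spread between the libraries, which may be technical. The libraries held 10271571 to 11761234 reads on genes, and a normalized count is a number of reads divided by a size factor of the library. In RNA from many cells, fewer cells of a type and less RNA per cell cannot be told apart.

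mTOR is a kinase that couples growth to nutrients and growth factors. It works in mTORC1, which is built around raptor (the product of Rptor) and drives protein and lipid synthesis, and in mTORC2, which is built around rictor (Rictor) and acts on AKT. The small GTPase Rheb switches mTORC1 on at the lysosome, and hamartin (Tsc1) and tuberin (Tsc2) form the complex that turns Rheb off. Ddit4 (also called REDD1) is induced by stress and acts through the TSC complex, and the sestrins restrain mTORC1 when amino acids are short. In Treg cells, mTORC1 is known to support suppressive function, and its activity is set largely by phosphorylation, which mRNA levels do not show. The study took up mTORC1 activity in the response of Treg cells to TSLP, and the comparison here addresses the mRNA of its machinery.

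All 9 genes had a promoter in RefSeq (GRCm38.p6), with 10 start sites in all. The 250 bases before the start are shown for 3 genes whose windows hold no annotated exon, namely the kinase itself (Mtor, chr4:148448332-148448581, forward strand), the mTORC1 subunit (Rptor, chr11:119602655-119602904, forward strand) and the brake whose groups did not overlap (Sesn3, chr9:14276051-14276300, forward strand). Capitals mark matches on either strand to the GC box (GGGCGG) and the CCAAT box (CCAAT).
Mtor: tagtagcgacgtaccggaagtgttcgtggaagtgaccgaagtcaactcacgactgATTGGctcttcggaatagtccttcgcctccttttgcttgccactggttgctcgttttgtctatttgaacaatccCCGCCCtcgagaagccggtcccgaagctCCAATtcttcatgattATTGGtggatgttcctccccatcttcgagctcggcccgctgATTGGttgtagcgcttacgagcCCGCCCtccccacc
Rptor: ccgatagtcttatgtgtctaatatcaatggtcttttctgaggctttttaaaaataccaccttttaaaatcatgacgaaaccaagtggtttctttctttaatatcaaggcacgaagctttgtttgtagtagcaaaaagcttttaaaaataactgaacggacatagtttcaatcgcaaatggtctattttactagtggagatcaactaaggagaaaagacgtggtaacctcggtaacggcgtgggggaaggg
Sesn3: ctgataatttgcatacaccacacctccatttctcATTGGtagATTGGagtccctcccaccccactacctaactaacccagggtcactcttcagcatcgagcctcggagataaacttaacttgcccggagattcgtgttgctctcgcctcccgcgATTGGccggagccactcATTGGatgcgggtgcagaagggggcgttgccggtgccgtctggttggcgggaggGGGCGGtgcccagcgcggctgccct
The windows of Mtor and Sesn3 held 4 CCAAT boxes each, with 2 GC boxes for Mtor and 1 for Sesn3. The window of Rptor held neither, and its GC content was 37.6%, against 54.4% for Mtor, 59.6% for Sesn3 and a median of 52.4% over all promoters. A CCAAT box was found in 6 and a GC box in 7 of the 10 windows, and in 33.8% and 33% of 32536 promoters of the same length. The forkhead motif bound by FoxO factors (GTAAACA) was in 0 of the 10 windows and in 3.17% of all promoters, which says only that these letters are absent from the windows.

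The PBS libraries stood apart from each other before any comparison of the groups was made. PBS 1 had the lowest normalized count of the 4 libraries in 6 of the 9 genes and the highest in 2. PBS 2 was the highest for Mtor, Rptor, Rictor, Tsc1 and Tsc2 and the lowest for Sesn1 and Rheb. The share of all genes with their extreme values in these libraries was not counted. The gap between replicates was wider in PBS than in TSLP for 8 of the 9 genes. Over 6290 genes with a mean normalized count of at least 250, it was wider in PBS for 66.9%. The median log2 gap over those genes was 0.36 in PBS and 0.20 in TSLP. The Treg transcription factor Foxp3 had 2514 reads in PBS 1 and 5065, 4784 and 4824 reads in PBS 2, TSLP 1 and TSLP 2. Cd3e, a subunit of the T cell receptor complex, had 2629, 2706, 2812 and 2683 reads in the same order. Il2ra, the interleukin 2 receptor alpha chain that Treg cells carry, was likewise lowest in PBS 1 (3872 reads against 4782, 5097 and 5113), whereas Ctla4, an inhibitory receptor of Treg cells, was highest there (14544 reads against 12245, 14091 and 12870). All 5 markers used for the labelled cell type (Foxp3, Il2ra, Ctla4, Cd4 and Cd3e) were read in each library, and their summed level was 2592.0, 2898.9, 2804.9 and 3083.7 cpm (reads scaled to the depth of the library), with Ctla4 the most abundant; Cd4 and Cd3e mark T cells in general. The 2 markers of CD8 T cells together reached 13.4, 7.83, 8.84 and 12 cpm in that order. The 4 markers of B cells reached 0.618, 10.4, 5.02 and 9.35 cpm, with Cd79b the most abundant except in TSLP 1, where Cd79a was. The 5 markers of myeloid cells reached 17.6, 11.9, 8.59 and 8.76 cpm, and their genes did not move together. Cd68 was lower with TSLP (174 and 66 reads against 59 and 16) and was the most abundant except in TSLP 2, where Lyz2 was (1 and 43 reads against 37 and 40), and Adgre1 was at 0 reads in every library. The 5 markers of erythroid cells reached 0, 0, 0.255 and 0.681 cpm. The part of these differences in the values below was not tested.

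None of the 9 mTOR genes passed the test when Treg cells given TSLP were set against those given PBS. With limma on log2(normalized count + 1) over 11392 genes, 0 of the 9 had an unadjusted p under 0.05 and the adjusted p was 1 for each. Over all genes tested, 1.69% (192 genes) had an unadjusted p under 0.05 and 0% (0 genes) an adjusted p under 0.05. edgeR called 0 genes after adjustment and 234 before it, and DESeq2 called 0 and 286, with 0 of the 9 mTOR genes among those called before adjustment by either tool. The log2 fold change was positive for 7 of the 9 genes and negative for 2, and the libraries of the groups overlapped in 8. The TSLP libraries were both higher than either PBS library for Sesn3 alone, that is 1 of 9 genes, beside 14.5% of all genes tested. Both lay below for 0 of 9, beside 14.4% of all genes tested. For 8 of the 9 genes, the gap between PBS 1 and PBS 2 was wider than the difference between the group means. The share of all genes with such a gap was not counted, so this is not a trait of the mTOR genes.

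**Figure D1:**
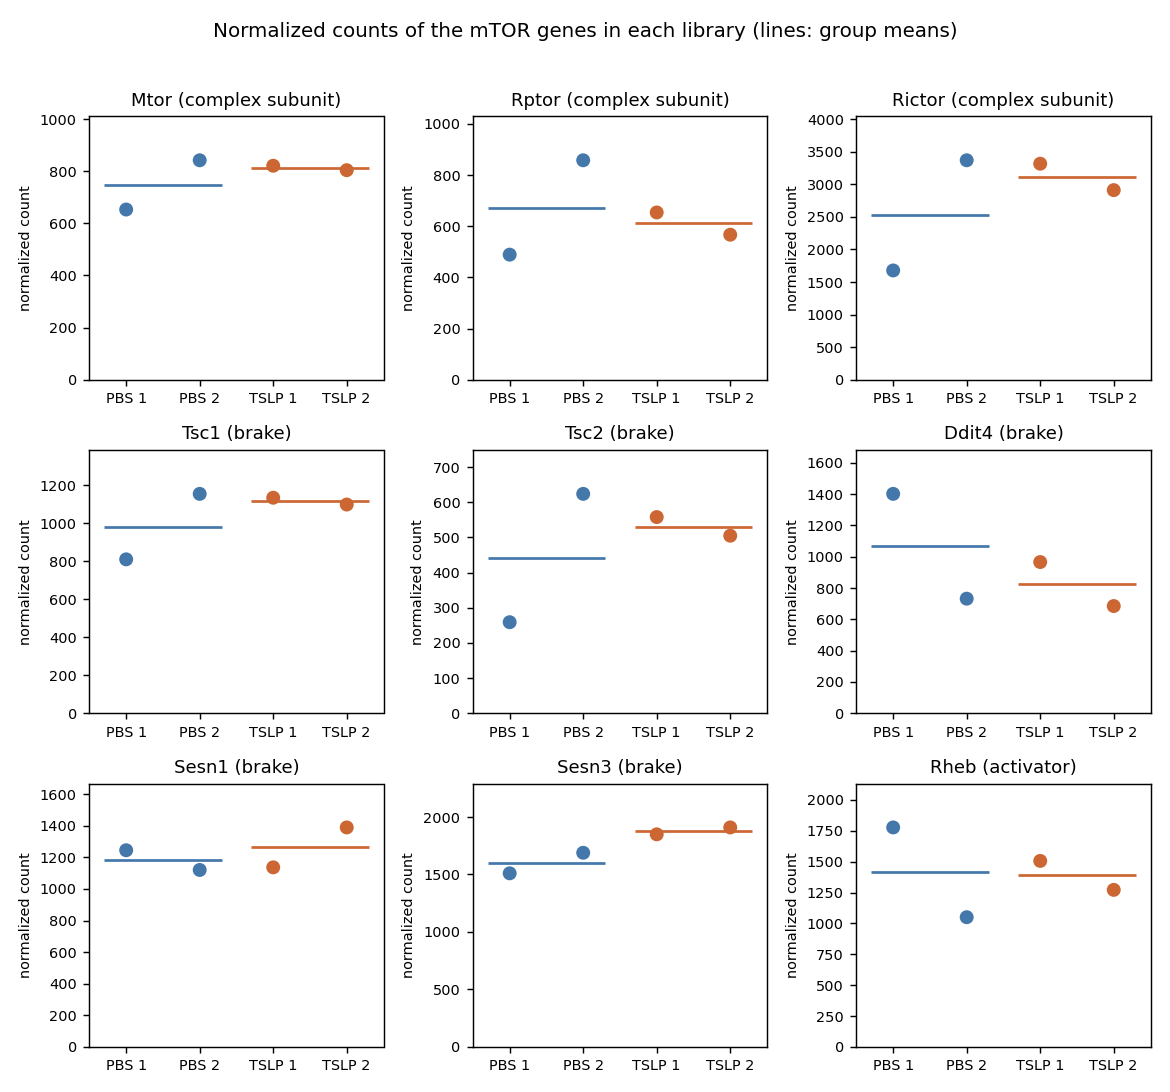
Normalized counts of the 9 mTOR genes (y axis, from 0) in the 4 libraries (x axis), with PBS in blue, TSLP in orange and lines for the group means (n = 2). The TSLP points lie above both PBS points only for Sesn3, and PBS 1 is the lowest point in 6 panels and the highest in 2.

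Mtor encodes the kinase shared by both complexes and lies on chromosome 4 of GRCm38 (mm10) from 148448611 to 148557683, on the forward strand. Its normalized count was 653 in PBS 1 and 842 in PBS 2, and 821 and 804 in TSLP 1 and TSLP 2. The TSLP values thus fell between the PBS values and nearly coincided. The log2 fold change was 0.13 (standard error 0.25, 95% interval −0.43 to 0.70, adjusted p = 1 by limma), and −0.052 without PBS 1.

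Rptor, on chromosome 11 from 119602905 to 119899576 (forward strand), encodes raptor, which presents substrates to mTORC1. It was read at 489 and 858 with PBS and at 654 and 567 with TSLP, again with the TSLP libraries inside the range of the PBS libraries. Its log2 fold change was −0.088 (standard error 0.32, 95% interval −0.80 to 0.62, adjusted p = 1 by limma), and 0.32 without PBS 2. An antisense gene, Rptoros, shares 84 of its exonic bases (0.624%) and had 0, 7, 11 and 0 reads.

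Rictor, on chromosome 15 from 6708379 to 6800401 (forward strand), encodes the scaffold of mTORC2 and had the most reads of the 3 subunits. Its normalized count was 1677.8 in PBS 1 and 3369.7 in PBS 2, against 3317.1 and 2911.5 with TSLP. The 3 libraries other than PBS 1 lay close together, with PBS 2 the highest. The counting error in PBS 1 was small beside this gap (exact Poisson 95% interval 1599.7 to 1758.7, which covers counting error only). The log2 fold change was 0.39 (standard error 0.32, 95% interval −0.33 to 1.10, adjusted p = 1 by limma), and −0.12 without PBS 1.

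Of the TSC genes, Tsc1 lies on chromosome 2 from 28641228 to 28691167 (forward strand) and Tsc2 on chromosome 17 from 24595816 to 24632630 (reverse strand). Tsc1 stood at 810 and 1154.6 with PBS and at 1134.3 and 1098.4 with TSLP. Tsc2 stood at 259 and 624 with PBS and at 558 and 505 with TSLP, so that both genes had their lowest value in PBS 1 and their highest in PBS 2. The exact Poisson 95% intervals for Tsc2 were 229 to 292 in PBS 1 and 576 to 675 in PBS 2, and they did not meet. The log2 fold changes were 0.21 for Tsc1 (standard error 0.25, 95% interval −0.36 to 0.78) and 0.40 for Tsc2 (standard error 0.40, 95% interval −0.51 to 1.31), both with adjusted p = 1 by limma. Without PBS 1 both turned negative, to −0.049 and −0.23. Exons of Tsc2 and of Pkd1, a gene on the opposite strand, overlap by 693 bases, or 7.2% of the exonic length of Tsc2. Pkd1 had 1316, 2930, 2346 and 2080 reads, and whether the counting used strand is not given in the sources used here.

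Ddit4, the stress-induced brake, is a short gene on chromosome 10 from 59949669 to 59951834 (reverse strand). It was the only brake with a lower mean after TSLP, at 966 and 685 against 1401.5 and 732 with PBS. PBS 1 had the highest value, and PBS 2 lay between the TSLP libraries. The log2 fold change was −0.32 (standard error 0.34, 95% interval −1.08 to 0.44, adjusted p = 1 by limma), and 0.15 without PBS 1.

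For the sestrin genes, the log2 ratios of PBS 2 to PBS 1 were −0.15 (Sesn1) and 0.16 (Sesn3). Sesn1, on chromosome 10 from 41809935 to 41908424 (forward strand) and known as a target of p53, stood at 1245.5 and 1120.6 with PBS and at 1137.1 and 1389.9 with TSLP. Its groups overlapped, with a log2 fold change of 0.09 (standard error 0.23, 95% interval −0.43 to 0.61, adjusted p = 1 by limma), 0.23 without TSLP 1 and −0.055 without TSLP 2. Sesn3, on chromosome 9 from 14275067 to 14333101 (forward strand) and known as a target of FoxO factors, stood at 1510.1 and 1688.9 with PBS and at 1849.3 and 1909.3 with TSLP. Each TSLP library was above each PBS library, but the log2 fold change was only 0.23 (standard error 0.21, 95% interval −0.25 to 0.72, adjusted p = 1 by limma). Leaving out each library in turn gave 0.15 to 0.32 for Sesn3, but with the length trend removed the value was −0.042 and the groups overlapped. The value of 0.23 was close to the median of genes of like length, namely 0.21 over the 778 genes with at least 10000 exonic bases and a mean normalized count of at least 250. Among those genes, the TSLP libraries were both higher than either PBS library in 17.9% and both lower in 2.96%.

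Rheb, which activates mTORC1, lies on chromosome 5 from 24802823 to 24842624 (reverse strand). It stood at 1777.6 and 1050.5 with PBS and at 1506.4 and 1271.8 with TSLP, the TSLP libraries lying between those of PBS. The log2 fold change was 0.018 (standard error 0.28, 95% interval −0.62 to 0.66, adjusted p = 1 by limma). It was 0.40 without PBS 1 and −0.36 without PBS 2, and slightly negative with edgeR (−0.027) and DESeq2 (−0.026).

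**Figure D2:**
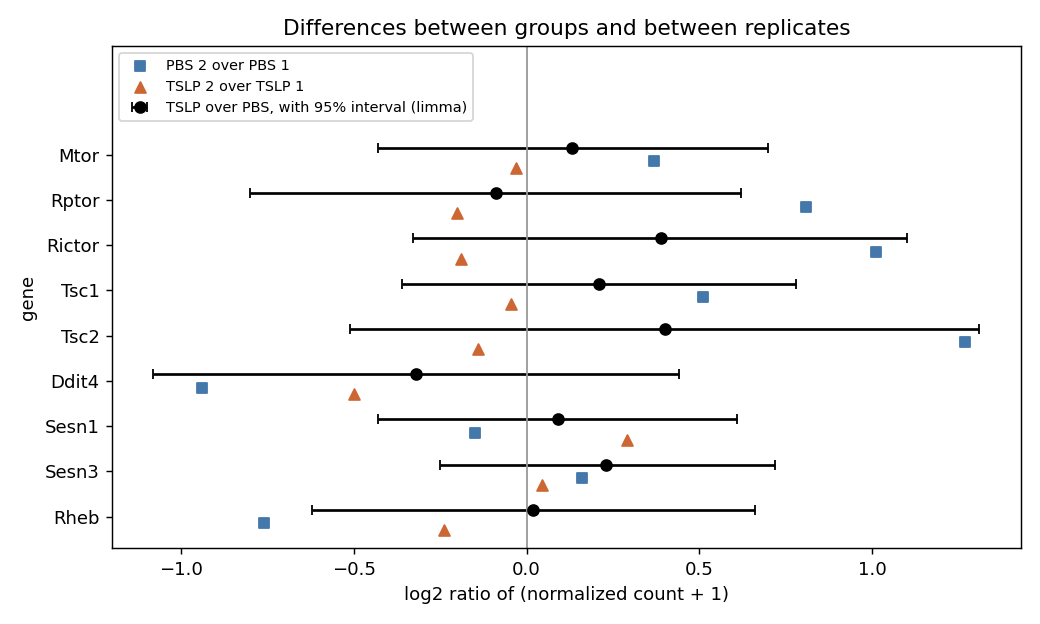
Log2 ratios (x axis) for the 9 mTOR genes (y axis), with black points and bars for TSLP over PBS and its 95% interval by limma, blue squares for PBS 2 over PBS 1 and orange triangles for TSLP 2 over TSLP 1. Every interval includes 0, and the blue squares reach from −0.94 for Ddit4 to 1.27 for Tsc2.

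Expression of the genes was then compared per length, as RPKM (reads per kb of exon, scaled to the reads on genes in the library), averaged over the 4 libraries. The exonic length is that of all annotated exons combined and can exceed the length of the transcripts in these cells. Ddit4 had the highest level (49.4 ± 16.6, SD, n = 4), followed by Sesn1 (28.2 ± 3.07) and Rheb (16.7 ± 3.52). The ranges of these 3 over the libraries did not overlap, at 36.3 to 72.7, 25.8 to 32.5 and 12.7 to 21. Rictor (15.3 ± 4.31), Sesn3 (10.5 ± 1.1), Tsc1 (8.16 ± 1.3) and Mtor (7.1 ± 0.829) came next, and Tsc2 (4.66 ± 1.55) and Rptor (4.38 ± 1.13) were lowest. From Rheb downwards, the ranges of neighbours in this order overlapped. Subunits and brakes were thus mixed in this order, with Rictor above the brakes Sesn3, Tsc1 and Tsc2, and Mtor below all brakes but Tsc2.

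To set the subunits against the brakes, the mean log2(normalized count + 1) of the 5 brakes was subtracted from that of the 3 subunits in each library. For PBS 1 and PBS 2 the result was −0.13 and 0.43, and for TSLP 1 and TSLP 2 it was 0.21 and 0.13. The TSLP values lay inside the range of the PBS values, and the group means differed by 0.02 (0.15 with PBS and 0.17 with TSLP) where the PBS libraries differed by 0.56. The difference was −0.26 without PBS 1, 0.30 without PBS 2 and −0.11 with the length trend removed. With that trend removed, PBS 1 and PBS 2 stood closer, at 0.065 and 0.36. TSLP 1 and TSLP 2, at 0.13 and 0.08, still lay between them. The mean log2 fold change was 0.14 for the subunits and 0.12 for the brakes, and the medians were 0.13 and 0.21, so that mean and median ordered these groups differently. Over all genes tested the mean was 0.026 and the median 0.012. No shift of the subunits against the brakes was seen beyond the spread between replicates.

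Ratios within a library do not depend on its scaling. Of 6 ratios formed between the mTOR genes per exonic length, 2 had no overlap between the groups, beside 26% of all pairs of genes with a mean normalized count of at least 250 (28% with the length trend removed), so that the count itself is near the background. The ratio of Rptor to Rictor, the defining subunits of mTORC1 and mTORC2, was 0.366 and 0.32 with PBS and 0.248 and 0.245 with TSLP. After the dependence on gene length was removed, it was 0.349 and 0.324 with PBS and 0.252 and 0.25 with TSLP, and the groups remained apart. The ratio of Ddit4 to Rheb was 3.47 and 3.07 with PBS and 2.82 and 2.37 with TSLP, but the groups overlapped once the trend was removed (2.69 and 3.47 against 3.06 and 2.48). The ratio of Rptor to Mtor went the other way, from overlap (0.561 and 0.765 against 0.597 and 0.53) to lower values with TSLP (0.598 and 0.754 against 0.583 and 0.518). Tsc1 exceeded Tsc2 by 1.5 to 2.55 times in every library, and Rictor exceeded Mtor by 1.53 to 2.41 times. These ratios were singled out after their values were seen and carry no test.

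**Figure D3:**
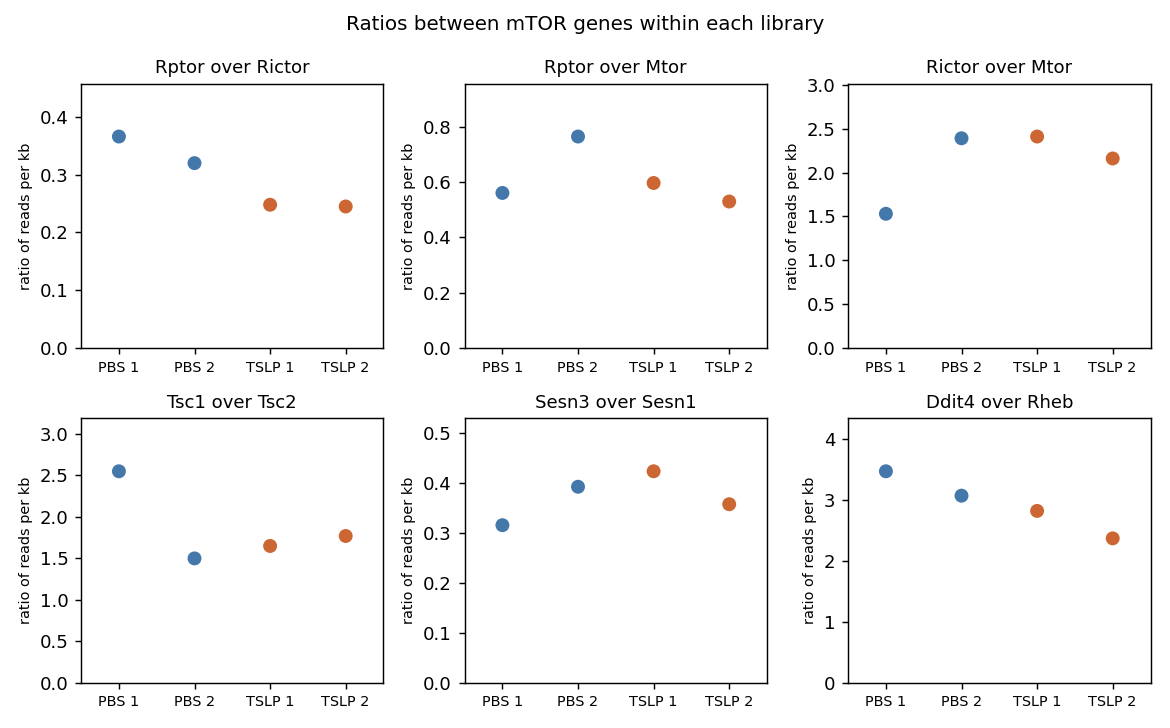
Ratios of reads per kb between pairs of mTOR genes (y axis, from 0) in the 4 libraries (x axis), with PBS in blue and TSLP in orange. The ratio of Rptor to Rictor is 0.248 and 0.245 with TSLP, below both PBS libraries, and the ratios in the other panels overlap between the groups except that of Ddit4 to Rheb.

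The gap between the PBS libraries moved with gene length. Over 6290 genes with a mean normalized count of at least 250, of which those with a unique exonic length were binned, the median log2 ratio of PBS 2 to PBS 1 was −0.61 below 2000 exonic bases, −0.18 from 2000 to 5000, 0.18 from 5000 to 10000 and 0.52 above. The ratio of TSLP 2 to TSLP 1 was 0.092 to −0.039 in these bins. Ddit4 is the shortest of the mTOR genes (1755 bases) and had a log2 ratio of PBS 2 to PBS 1 of −0.94, whereas Rictor is the longest (16930 bases) and had 1.01. Tsc1 (0.51) and Mtor (0.37) lay near the median of their length, while Tsc2 (1.27) lay above and Rheb (−0.76) below theirs. With the trend removed, the gap of Mtor shrank to −0.095 and that of Tsc1 to −0.011. That of Tsc2 was still 0.83 and that of Rheb −1.11, and those of Sesn1 and Sesn3 widened to −0.26 and −0.46. The log2 fold changes of Mtor and Tsc1 then became −0.046 and −0.0092. Rictor fell from 0.39 to 0.087, and Tsc2 from 0.40 to 0.23. The largest in size was that of Rptor, at −0.34 (unadjusted p = 0.197 by limma), and Rptor and Tsc1 were the 2 of 9 genes with both TSLP libraries then below both PBS libraries, beside 15.3% of all genes with the trend removed. Both lay above for 0 of 9, beside 13.8%.

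The rest of the pathway was read from 7 lists by role, with 72 genes in all, of which 68 passed the filter on low counts. None of the 68 had an unadjusted p under 0.05 by limma, and the smallest was 0.0587. With the length trend removed, 2 of 66 did, namely Prkag2 (−0.67, unadjusted p = 0.0423 by limma) and Lpin1 (−0.74, unadjusted p = 0.0475 by limma), beside 1.9% of the 10944 genes with that trend removed. Of these 66, the log2 fold change was positive for 29 and negative for 37, with a median of −0.018. Without that removal, the log2 fold changes of the 68 genes were positive for 34 and negative for 34, with a median of −0.004. Of the 68, the TSLP libraries were both higher than either PBS library in 10 (14.7%) and both lower in 10 (14.7%), close to the 14.5% and 14.4% of all genes tested.

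Among the other subunits and assembly factors, 8 of 9 genes were tested, 3 with a positive and 5 with a negative log2 fold change (median −0.21). Both TSLP libraries lay below both PBS libraries in 4 of the 8, beside 14.4% of all genes, and above them in 0. Mlst8, a subunit of both complexes, had 317 and 384 reads in the PBS libraries against 211 and 219 in those given TSLP, a log2 fold change of −0.69 (95% interval −1.45 to 0.077, adjusted p = 1 by limma). Mapkap1, which encodes the mTORC2 subunit SIN1, had 339 and 315 reads in the PBS libraries against 285 and 272 in those given TSLP. Akt1s1, which encodes the mTORC1 inhibitor PRAS40, had 276 and 276 against 238 and 240, and the 4th gene, Prr5l, had 38 and 13 against 9 and 8. The intervals of these log2 fold changes all included 0. Tti1, an assembly factor and the gene of the highest level per length in this list, had 199 and 460 reads in the PBS libraries against 342 and 388 in those given TSLP.

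Of the other brakes, 8 of 10 were tested, 2 with a positive and 6 with a negative log2 fold change (median −0.14). The list holds the subunits of AMPK, the energy sensor that restrains mTORC1, and the values of those tested lay near 0 or below it. The catalytic subunit Prkaa1 was at 0.0065, Prkag1 at −0.012 and Prkab2 at −0.27, each with overlapping groups. Prkag2, its gamma 2 subunit, had 581 and 496 reads in the PBS libraries against 392 and 310 in those given TSLP, a log2 fold change of −0.61 (95% interval −1.25 to 0.028, unadjusted p = 0.0587 and adjusted p = 1 by limma). Prkab1, the beta 1 subunit, had 920 and 804 against 681 and 576 (−0.45, 95% interval −0.99 to 0.099). These were the 2 of 8 genes with both TSLP libraries below both PBS libraries, beside 14.4% of all genes tested. Stk11, the kinase upstream of AMPK and the gene of the highest level in this list (79.2 RPKM), had 4685 and 3924 reads against 4209 and 3223. Sesn2, the remaining sestrin, had 296 and 289 reads in the PBS libraries against 511 and 149 in those given TSLP, so that its TSLP libraries lay on either side of PBS.

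In the amino acid branch, all 8 brakes were tested, with 5 positive and 3 negative values (median 0.20). Castor2, a partner of the GATOR2 complex listed under its older name Gatsl2, had the smallest p among them, with 168 and 520 reads in the PBS libraries against 443 and 562 in those given TSLP. The related arginine sensor Castor1 (listed as Gatsl3) had 308 and 255 against 289 and 153. All 18 activators of this branch were tested, 9 with a positive and 9 with a negative value (median 0.017). Both TSLP libraries were above PBS for 4 of them, Wdr59 of the GATOR2 complex included (441 and 440 reads against 533 and 575), and below for 2, beside 14.5% and 14.4% of all genes tested. With the length trend removed, the groups of Wdr59 overlapped and its log2 fold change went from 0.34 to 0.20. Flcn, which encodes folliculin and had the highest level of this list, had 2550 and 2526 reads in the PBS libraries against 2925 and 1937 in those given TSLP.

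Of the 9 PI3K and AKT genes, 4 had a positive and 5 a negative log2 fold change (median −0.045). Pdpk1, the kinase that phosphorylates AKT, had its highest normalized counts in both TSLP libraries, with 1847 and 2742 reads in the PBS libraries against 3186 and 2744 in those given TSLP and a log2 fold change of 0.40 (95% interval −0.17 to 0.98). Pik3r1, a regulatory subunit of PI3K, had 4240 and 4970 reads against 5699 and 5085. All 5 phosphatase genes had positive values, with a median of 0.057. They ran up to 0.40 for Inpp4b (2620 and 3698 reads against 4265 and 3890), and Phlpp1, the most abundant per length, had 2939 and 4581 against 4021 and 3568. Of 12 effectors tested, 6 were positive and 6 negative (median 0.013). Lpin1, a lipin that mTORC1 phosphorylates, had 946 and 806 reads in the PBS libraries against 826 and 412 in those given TSLP (−0.57). Rps6, the ribosomal protein whose phosphorylation reports mTORC1 activity, had 4349 and 2879 against 3404 and 3124 (−0.11, 95% interval −0.66 to 0.45).

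**Figure D4:**
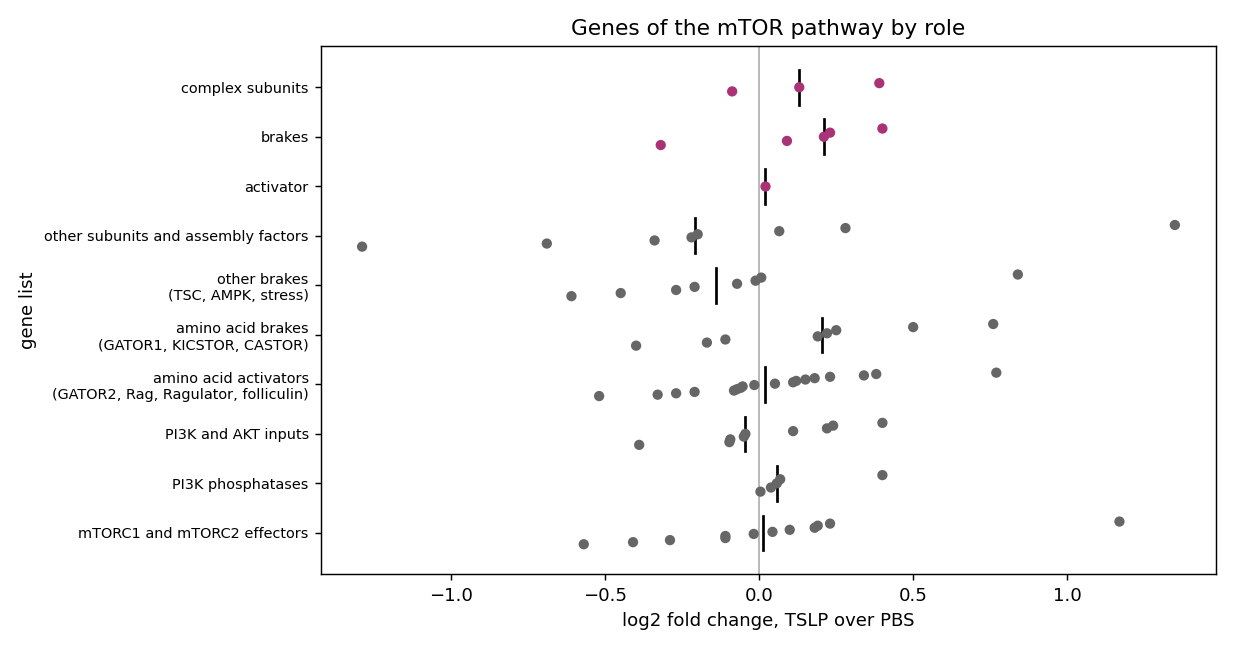
Log2 fold change of TSLP over PBS (x axis) for each tested gene of 10 lists by role (y axis), with purple points for the 9 mTOR genes, grey points for the others and black bars for the median of each list. The medians run from −0.21 for the other subunits to 0.21 for the brakes.

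Factors known to act on the brake genes were also read. Hif1a, which encodes a hypoxia-inducible factor that acts on Ddit4, had 6504 and 7120 reads in the PBS libraries against 9602 and 7811 in those given TSLP, with a log2 fold change of 0.36 (95% interval −0.16 to 0.87). Atf4, a stress factor that also acts on Ddit4 and had the highest level of this list, had 8336 and 4653 reads in the PBS libraries against 6133 and 4355 in those given TSLP. Like Ddit4 it was highest in PBS 1. Of the 7 factors, 3 had a positive and 4 a negative value, and of 10 other targets of these factors tested, 5 and 5. Among the latter, Klf2, a FoxO target, had 3281 and 1811 reads in the PBS libraries against 2109 and 1437 in those given TSLP (−0.47, 95% interval −1.15 to 0.20), and Per1, the most abundant per length, had 6806 and 6608 against 7750 and 5189. None of these 17 genes had an unadjusted p under 0.05 by limma.

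By limma, Rictor was the subunit and Sesn3 the brake with the smallest p, whereas edgeR and DESeq2 put Ddit4 first among the brakes. Among 8173 genes with a mean normalized count of at least 100, the pattern of Rictor was matched most closely by Rb1cc1, Slc5a3 and Plin3 (Pearson r, rounded, of 1, 0.9999 and 0.9999 over 4 libraries). That of Sesn3 was matched by Smc4, Ints6 and Txndc11 (0.9999, 0.9996 and 0.9996). A value of 0.95 was exceeded by 787 genes with Rictor and by 262 with Sesn3, and with 4 points these values are a description only. Rb1cc1, Slc5a3 and Plin3 were lowest in PBS 1, as Rictor was, and have 14690, 10913 and 3786 exonic bases.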

How the data were processed

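RNA from sorted Treg cells was sequenced as 50-base single-end reads of a directional library. According to the study's methods, reads were mapped to mm10 with HISAT2 and counted per gene with HTSeq. What the authors deposited is a signal, reads per gene scaled by 1 size factor in each library (0.9569 to 1.0615). Each value was a whole multiple of 1 step per library (100% within 0.01), so reads were recovered. Of 24418 names, 27 had turned into dates. Depth was 10271571 to 11761234 reads per library.

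Groups followed the labels. Normalized values were tested with limma 3.58.1 (R 4.3.3) on log2(value + 1), with a trend in the prior variance, over genes with a value of at least 10 in at least 2 libraries and Benjamini-Hochberg adjustment. A replicate number was not a term. edgeR 4.0.16 and DESeq2 1.42.0 on recovered reads were alternatives, as were other scalings, filters and pseudocounts, a replicate block, removal of the length trend (loess) and leaving out each library. Fits were tested on simulated data. Exonic lengths and positions came from GENCODE M21. The genes named are the 9 mTOR genes, those most like Rictor and Sesn3, the markers and, for each other list, the genes with the smallest p and the highest level per length; others, such as Mapkap1, Akt1s1, Prr5l, Prkab1 and Sesn2, were chosen after their values were seen. Members and lists were chosen with earlier results of these data known.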

Additional observations from a re-analysis of the deposited data

How the results depend on the processing

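With 2 libraries in each group, a log2 change under about the half-width of the intervals above could not be told from the spread. Over 11 alternatives other than leaving out a library, 93 of 99 log2 fold changes of the mTOR genes kept their direction and 0 had an unadjusted p under 0.05 by limma, edgeR or DESeq2. The 6 that turned were Rheb with edgeR (−0.027) and DESeq2 (−0.026), and Mtor (−0.046), Tsc1 (−0.0092), Sesn3 (−0.042) and Rheb (−0.088) with the length trend removed, where the median of the brakes was −0.0092 against 0.21. The cause was not tested.

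When a library is left out, the other of its group stands alone, and limma assumes that it varies like the other group. Then 10 of 36 values turned, and 3 had an unadjusted p under 0.05 by limma, all without PBS 2: Rictor (0.89), Tsc2 (1.03) and Ddit4 (−0.78), that is 3 of 9 beside 16.3% of all genes tested in that fit. The ranges were −0.052 to 0.31 for Mtor, −0.49 to 0.32 for Rptor, −0.12 to 0.89 for Rictor, −0.049 to 0.46 for Tsc1, −0.23 to 1.03 for Tsc2, −0.78 to 0.15 for Ddit4, −0.055 to 0.23 for Sesn1 and −0.36 to 0.40 for Rheb. The median of the brakes ranged from 0.15 to 0.32, that of the subunits from −0.12 to 0.32 and the difference of subunits and brakes from −0.26 to 0.30. The genes with an unadjusted p under 0.05 by limma numbered 192, 358 with no filter, and 79 to 1858 on leaving out a library, the highest without PBS 2 and the lowest without TSLP 2. The number with an adjusted p under 0.05 was 0 in every setting.

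The labels give the groups the same replicate numbers but do not say whether libraries of the same number share an animal or a batch. Deviations of these libraries from their group means correlated at 0.001 over 11392 genes. With 2 pairs, this value cannot show whether the libraries were paired. With the replicate block, 258 genes had an unadjusted p under 0.05 by limma and 0 an adjusted one, and no mTOR gene was called.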
